A study of Mus musculus with 14 samples.

Results

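Interferon-stimulated genes (ISGs) are the genes that cells transcribe after interferon binds its receptor, and many of their products act against viruses. A fixed list of 45 such genes was followed through 4 subsets of mouse splenic B cells, and 43 of the 45 were measured by a probe set with a single gene symbol, among 18193 genes in all. Isg15 and Ifi44 are not analysed here. Each gene is represented by its brightest probe set.

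Total RNA of sorted cells was hybridised to 14 Affymetrix arrays. All cells came from spleens of male C57Bl/Ka mice. The T cell antigens CD3, CD4, CD5 and CD8 and the myeloid and erythroid antigens Gr-1, CD11b and Ter119 were used to leave other cells out of each sort. Plasma cells (4 arrays) were taken at day 7 from mice aged 5 to 9 weeks, as syndecan-1+ NP+ cells with low B220 and low IgM that carried the lambda light chain and did not bind PNA. Memory cells (4 arrays) were taken at 10 to 12 weeks from mice aged 14 to 18 weeks, as B220+ NP+ lambda+ cells with high CD38 and no IgM, IgD or PNA binding. Germinal center cells (3 arrays) were taken at day 14 from mice aged 6 to 10 weeks, as B220+ NP+ PNA+ cells with low CD38. These 3 subsets came from mice given alum-precipitated NP-CGG, a hapten on a carrier protein, into the peritoneum, at 100 µg except that the label of plasma replicate 1 states no dose. Naive cells (3 arrays) came from unimmunized mice aged 4 to 8 weeks, as B220+ CD23+ IgD+ lambda+ cells with low IgM. Age, time since immunization and subset go together and cannot be told apart. The labels do not state whether replicates are different animals, so p-values reflect variation among these 14 samples alone, and that variation may be technical.

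Type I interferons bind the receptor chains Ifnar1 and Ifnar2, and interferon gamma binds Ifngr1 and Ifngr2. The kinases Jak1, Jak2 and Tyk2 on these chains phosphorylate STAT factors. Stat2 then joins Irf9 in the complex ISGF3, which binds the interferon-stimulated response element (ISRE), whereas interferon gamma acts through STAT dimers at the GAS element and through Irf1. Resting cells also transcribe many of these genes at a low level without added interferon. Mature B cells respond to interferons, and plasma cells differ from B cells in many receptors and transcription factors.

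Of the 43 measured genes, 32 had a promoter in the RefSeq table for build GRCm38.p6, given as 300 bases, from 250 before to 50 after the start of transcription. The core of the ISRE was searched as GAAANNGAAA on both strands. It was present for 16 of the 32 genes, or 50%, against 3.99% of the 27025 genes in the table. The GAS element TTCNNNGAA, read on both strands, was present for 9 of the 32, or 28.1%, against 9.55% of all genes. A gene with any match was counted once. For 6 role groups, the ISRE-bearing gene with the largest fold change that passed in any contrast is shown, because these promoters carry the shared element while their genes followed different courses over the subsets. Capitals mark every base inside a match to the ISRE core, and each sequence reads 5′ to 3′ on the strand of its gene. The windows are Irgm1 at chr11:48871371-48871670 (minus strand), Ddx58 at chr4:40239776-40240075 (minus strand), Trim21 at chr7:102565433-102565732 (minus strand), Oas1a at chr5:120907476-120907775 (minus strand), Bst2 at chr8:71537423-71537722 (minus strand) and Stat2 at chr10:128270248-128270547 (plus strand).
Irgm1: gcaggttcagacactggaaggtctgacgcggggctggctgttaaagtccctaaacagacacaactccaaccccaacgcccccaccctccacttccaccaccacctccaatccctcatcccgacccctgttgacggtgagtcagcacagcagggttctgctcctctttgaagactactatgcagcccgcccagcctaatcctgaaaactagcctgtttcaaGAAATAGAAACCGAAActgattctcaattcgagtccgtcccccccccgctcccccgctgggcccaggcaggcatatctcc
Ddx58: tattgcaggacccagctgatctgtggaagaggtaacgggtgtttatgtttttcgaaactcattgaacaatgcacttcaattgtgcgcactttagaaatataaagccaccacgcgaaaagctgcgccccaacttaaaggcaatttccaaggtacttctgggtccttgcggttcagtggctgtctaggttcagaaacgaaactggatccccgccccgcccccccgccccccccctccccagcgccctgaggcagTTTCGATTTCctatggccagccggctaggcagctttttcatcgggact
Trim21: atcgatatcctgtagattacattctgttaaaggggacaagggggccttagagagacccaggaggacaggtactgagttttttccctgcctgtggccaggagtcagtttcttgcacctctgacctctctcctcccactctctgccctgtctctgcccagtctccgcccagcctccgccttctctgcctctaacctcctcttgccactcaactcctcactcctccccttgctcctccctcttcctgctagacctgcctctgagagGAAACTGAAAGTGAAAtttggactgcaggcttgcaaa
Oas1a: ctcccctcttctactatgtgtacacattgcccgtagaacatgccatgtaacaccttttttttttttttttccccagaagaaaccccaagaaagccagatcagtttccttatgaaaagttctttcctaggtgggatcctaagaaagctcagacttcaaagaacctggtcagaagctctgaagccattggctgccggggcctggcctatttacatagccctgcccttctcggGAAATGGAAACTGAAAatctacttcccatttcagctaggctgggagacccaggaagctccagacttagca
Bst2: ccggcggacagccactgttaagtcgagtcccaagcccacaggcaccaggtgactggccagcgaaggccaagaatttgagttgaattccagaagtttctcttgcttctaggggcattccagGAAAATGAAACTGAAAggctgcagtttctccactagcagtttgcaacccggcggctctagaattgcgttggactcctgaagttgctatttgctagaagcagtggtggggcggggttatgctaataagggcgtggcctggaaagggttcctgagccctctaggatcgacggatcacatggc
Stat2: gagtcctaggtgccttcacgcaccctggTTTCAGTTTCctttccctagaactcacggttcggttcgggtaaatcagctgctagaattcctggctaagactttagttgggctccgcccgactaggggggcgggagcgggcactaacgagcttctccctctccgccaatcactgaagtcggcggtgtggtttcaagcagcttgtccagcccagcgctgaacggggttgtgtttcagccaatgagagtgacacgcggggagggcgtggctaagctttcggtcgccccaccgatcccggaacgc
A pair of overlapping matches began at -30 and -24 relative to the start of Irgm1, at -20 and -14 in Oas1a and at -130 and -124 in Bst2. In Trim21 they began at 13 and 19, past the start. Ddx58 had a single match at 2, and Stat2 had one at -222. A match is a string of letters and not a site shown to be bound.

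Precision is limited by how many arrays each subset has. Background was read on each array from 27 bacterial probe sets whose targets were not added, as the highest of their signals, and lay between 11.0 and 16.1 intensity units, and 34 to 42 of the 43 genes were above it. Between 52.7% and 66.9% of all genes were. Markers of each immunized subset were higher in it than in naive cells. All 6 plasma cell markers were higher in plasma than in naive cells, all 5 measured germinal center markers were higher in germinal center than in naive cells, and all 3 measured memory markers were higher in memory than in naive cells. The markers were not exclusive. Over germinal center cells 2 of the 3 memory markers were higher in memory cells, and 2 of the 5 germinal center markers also rose in memory and in plasma against naive cells. Both measured naive markers fell in plasma and germinal center cells, and 1 fell in memory cells. The ratio of 3′ to middle probe sets of actin, a measure of how far RNA or its copies were shortened, was 5.47 to 6.91 in plasma, 4.15 to 5.33 in memory, 6.11 to 17.6 in germinal center and 4.39 to 5.30 in naive cells. It was therefore higher on every germinal center array and every plasma array than on any memory or naive array. The same ratio for Gapdh ran differently, at 5.45 to 8.41 in plasma, 11.0 to 13 in memory, 8.23 to 10.9 in germinal center and 9.44 to 12.0 in naive cells, with every germinal center array below every memory array. Every plasma array was below every memory and naive array. Over 6116 bright genes the median fold change against naive cells was -0.25 in plasma, -0.20 in memory and -0.20 in germinal center cells, and the fold changes below are to be read beside these values. In bulk samples such as these, fewer cells that transcribe a gene and less RNA per cell cannot be told apart.

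As a group, the ISGs were brightest in naive cells. The median log2 intensity of the 43 genes on an array was 5.83 to 6.07 in plasma, 6.31 to 6.96 in memory, 5.09 to 5.49 in germinal center and 7.47 to 7.75 in naive cells, so that this median did not overlap between the 4 subsets. It depends on which genes lie in the middle and is not the change of a typical gene. The median of the log2 fold changes was -1.15 in germinal center against naive cells, but 0.09 in plasma against germinal center cells, where genes went both ways. The mean was highest in naive cells for 29 of the genes, in plasma cells for 9, in memory cells for 4 and in germinal center cells for 1. It was lowest in plasma cells for 19, in germinal center cells for 16, and in memory and in naive cells for 4 each. Fold changes below are log2 values ± their standard error from limma, from 1 model of the 14 arrays that estimates a mean for each subset, and a gene is said to rise or fall where the p-value adjusted over all 18193 genes is under 0.05.

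**Figure D1:**
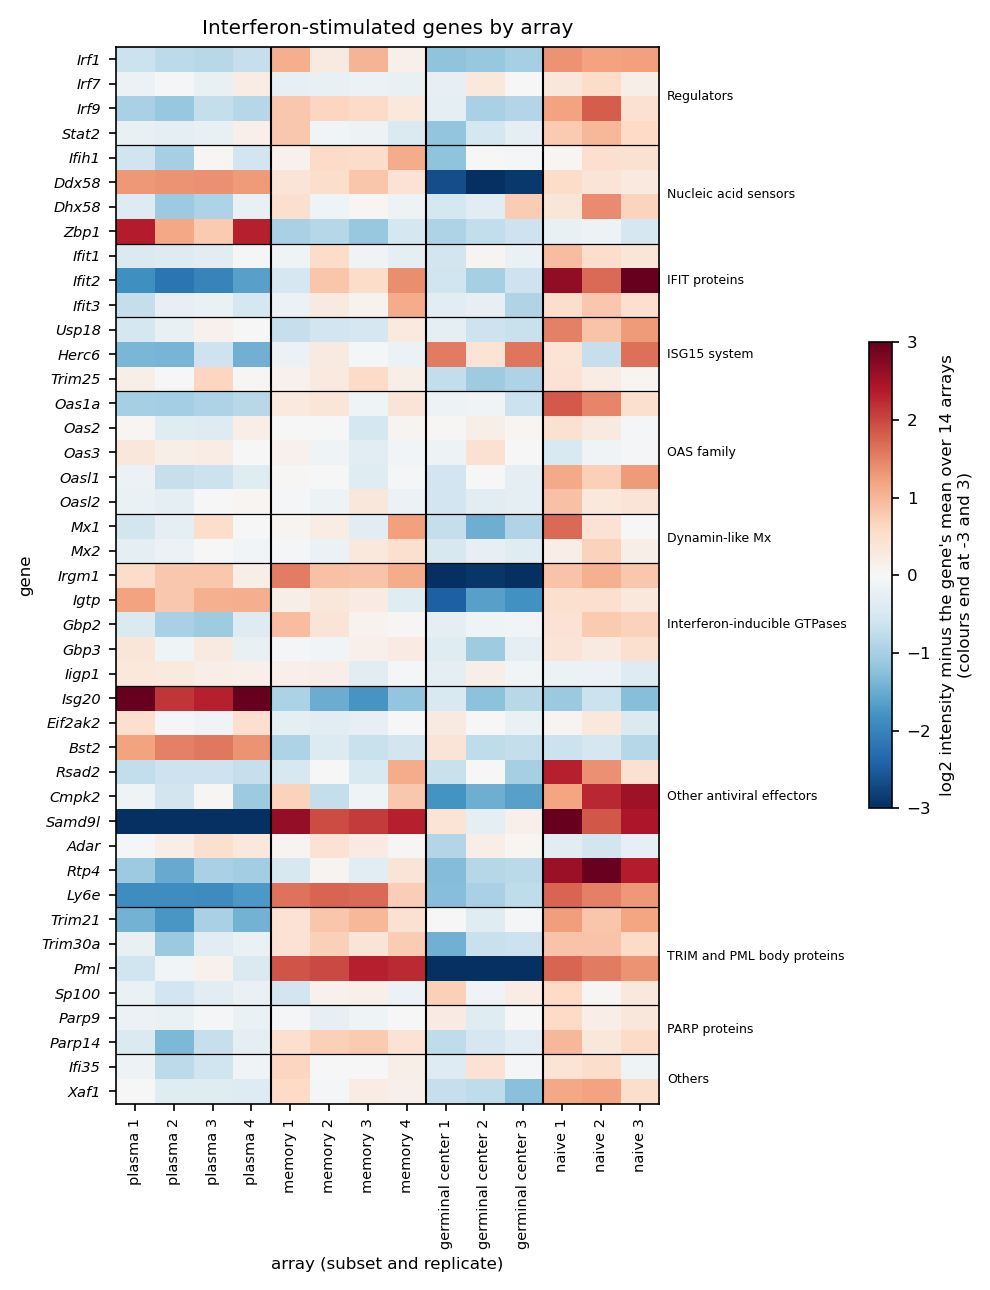
Each row is 1 of the 43 genes, grouped by role, and each column 1 array. Colour gives the log2 intensity minus the mean of the gene over 14 arrays, with the scale ending at -3 and 3. Naive columns are mostly red and germinal center columns mostly blue, while Isg20 and Zbp1 are red on the plasma arrays alone.

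In germinal center cells ISGs fell broadly against naive cells. Of the 43 genes 28 fell, where 11.1% of all genes did, and 0 rose, where 8.37% of all genes did. By limma, 0 genes were higher at an unadjusted p under 0.05 either. The median fold change was -1.15, against 0.06 over all genes, and -1.16 over 42 genes with Ifit1, Oasl2 and Usp18, which no germinal center array measured above background, set to their bounds. The fall was widest in the nuclear body gene Pml (-5.61 ± 0.21), the GTPase gene Irgm1 (-4.06 ± 0.22), the nucleotide kinase gene Cmpk2 (-3.63 ± 0.42) and Rtp4 (-3.63 ± 0.24). The 15 others did not pass, among them the regulator Irf7 (-0.33 ± 0.16) and the antiviral genes Isg20 (0.17 ± 0.32) and Bst2 (0.30 ± 0.25). With the actin ratio as a covariate 17 genes fell and 0 rose, and the 11 that no longer passed were Gbp2, Gbp3, Ifit1, Ifit3, Mx1, Mx2, Oasl2, Parp14, Rsad2, Stat2 and Trim21. When any 1 array was left out, 24 of the 28 still passed, the other 4 being Gbp2, Ifit1, Mx1 and Mx2.

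In plasma cells most ISGs fell against naive cells. Of the 43 genes 27 fell, where 16.1% of all genes did, and 6 rose, where 14.2% of all genes did. The 6 rises are close to that share of all genes. The median fold change was -0.89, or -0.90 over the 42 genes above background in a subset compared, with 3 at their bounds, against 0.06 over all genes. The widest falls were those of Samd9l (-6.62 ± 0.27), Ifit2 and Rtp4 (-3.78 ± 0.22). The genes that rose were the exonuclease gene Isg20 (3.74 ± 0.30), the tether gene Bst2 (2.07 ± 0.24), the sensor genes Zbp1 (1.94 ± 0.32) and Ddx58 (0.91 ± 0.14), and the GTPase genes Igtp (0.61 ± 0.20) and Iigp1. Iigp1 was not above background on any array of either subset, so that no fold is given for it. Of the 33 calls 25 stood when any 1 array was left out, the other 8 being Ifi35, Ifih1, Igtp, Iigp1, Oasl2, Parp9, Sp100 and Stat2. With the actin ratio as a covariate 28 of the 33 still passed, the other 5 being Ifih1, Igtp, Iigp1, Parp9 and Sp100.

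Fewer ISGs passed between memory and naive cells. Of the 43 genes 7 fell, where 3.26% of all genes did, and 0 rose, where 2.31% of all genes did. By limma, 2 genes, Adar and Pml, were higher at an unadjusted p under 0.05. The median fold change was -0.35, or -0.34 over 42 such genes, with 1 at its bound, against -0.03 over all genes. Those that fell were Rtp4 (-2.72 ± 0.22), Ifit2 (-1.95 ± 0.39), Cmpk2 (-1.84 ± 0.39), Usp18 (-1.57 ± 0.24), Oasl1 (-1.14 ± 0.19), Oas1a (-1.03 ± 0.26) and Irf7 (-0.57 ± 0.15). The first 6 of them were also the genes that fell in all 3 immunized subsets. Without naive replicate 2 the count was 4. Of the 7 calls 3 stood when any 1 array was left out, those of Oasl1, Rtp4 and Usp18. With arrays centred on bright genes 1 gene, Pml, rose and 5 fell, and 1, Adar, rose without germinal center replicate 1.

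**Figure D2:**
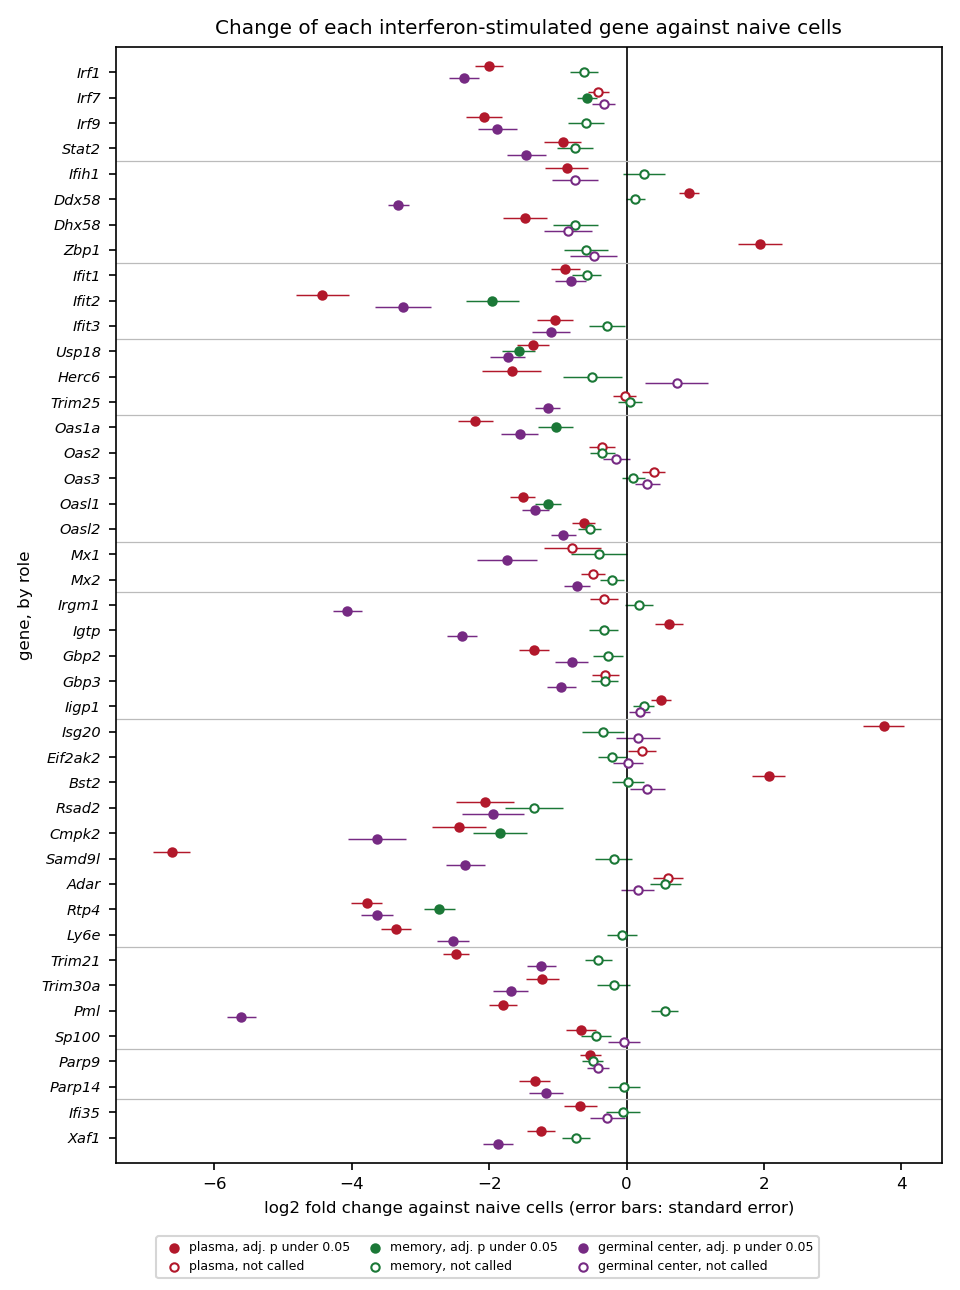
Points give the log2 fold change of each gene against naive cells in plasma (red), memory (green) and germinal center cells (purple), with the standard error as a bar. Filled points passed at an adjusted p under 0.05. Most filled points lie left of 0, and those right of 0 are the 6 plasma points of Isg20, Bst2, Zbp1, Ddx58, Igtp and Iigp1.

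Set against germinal center cells, memory cells gave higher ISG signals. Of the 43 genes 20 rose, where 11.0% of all genes did, and 0 fell, where 11.5% of all genes did. By limma 1 gene, Herc6, was lower at an unadjusted p under 0.05. The median fold change was 0.60, or 0.63 over 41 such genes, against -0.08 over all genes. The widest rises were those of Pml (6.16 ± 0.20), Irgm1 (4.25 ± 0.20) and Ddx58 (3.45 ± 0.14). Of the 28 genes that fell in germinal center cells, 19 rose in memory over germinal center cells, and 16 of those 19 were not called between memory and naive cells. These contrasts share the germinal center and naive arrays. Between memory and naive cells only 3.26% of all genes fell and 2.31% rose, so that most genes of any kind were not called there. The same overlap was not counted among all genes that fell in germinal center cells. With the actin ratio as a covariate 10 genes rose, namely Ddx58, Igtp, Irf1, Irgm1, Ly6e, Pml, Samd9l, Trim25, Trim30a and Xaf1. When any 1 array was left out, 15 of the 20 still passed, the other 5 being Gbp3, Ifih1, Ifit2, Ifit3 and Mx1. Herc6 fell without germinal center replicate 2, naive replicate 2 or naive replicate 3, so that 1 gene fell there.

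Between plasma and germinal center cells the genes went both ways. Of the 43 genes 11 rose in plasma cells, where 11.2% of all genes did, and 5 fell, where 12.6% of all genes did. The 5 falls are close to that share of all genes. The median fold change was 0.09, or 0.08 over 40 such genes, with 1 at its bound, against -0.02 over all genes. The widest rises were those of Ddx58 (4.23 ± 0.14), Pml (3.81 ± 0.20) and Irgm1 (3.73 ± 0.20), and the widest falls those of Samd9l (-4.28 ± 0.27), Herc6 (-2.40 ± 0.43) and Trim21 (-1.24 ± 0.19). Of the 16 calls 11 stood when any 1 array was left out, the other 5 being Cmpk2, Gbp3, Ifit2, Ly6e and Xaf1. Without germinal center replicate 3 the count of genes that fell was 3. With the second brightest probe set of each gene that had more than 1, and the only one of the rest, 10 rose and 1 fell.

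Plasma cells gave lower ISG signals than memory cells for most of the genes that passed. Of the 43 genes 17 fell, where 16% of all genes did, and 5 rose, where 17.2% of all genes did, so that the rises are no larger a share than among all genes. The median fold change was -0.39, or -0.51 over 41 such genes, with 1 at its bound, against 0.08 over all genes. The widest falls were those of Samd9l (-6.43 ± 0.25), Ly6e (-3.29 ± 0.20) and Ifit2, and the widest rises those of Isg20 (4.08 ± 0.28), Zbp1 (2.53 ± 0.30) and Bst2 (2.05 ± 0.22). With the brightest probe set, Isg20, Ddx58, Bst2, Igtp and Zbp1 were higher in plasma cells than in each of the 3 other subsets, and Ifit2, Trim21, Samd9l, Herc6 and Ly6e were lower there than in each of them. The second brightest probe set turned some of these directions by limma. Ddx58 gave -0.98 (adjusted p = 0.00173) in plasma against memory and -1.26 (adjusted p = 0.00056) in plasma against naive cells, Herc6 gave 1.27 (adjusted p = 0.0356) in plasma against memory cells, and Ly6e gave 1.39 (adjusted p = 0.000284) in plasma against germinal center cells. With that probe set Trim21 did not pass in plasma cells against any of the 3 other subsets, nor Ly6e against naive and memory cells, nor Ifit2 against germinal center cells. The calls of Igtp against naive cells, of Herc6 against memory cells, and of Ifit2 and Ly6e against germinal center cells did not pass in some fits that left out 1 array. Of the 22 calls 18 stood when any 1 array was left out, the other 4 being Herc6, Ifi35, Ifit3 and Irgm1.

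The 4 regulators on the list include the factors through which the other genes are switched on. Irf1, a transcription factor induced by interferon gamma, had intensities of 226, 206, 199.9 and 219 in plasma cells, 763, 431, 723 and 393 in memory cells, 153, 163 and 178 in germinal center cells and 899, 816 and 831 in naive cells. All plasma and germinal center arrays lay below all memory arrays, and all memory arrays below all naive arrays. The fold change against naive cells was -2.0 ± 0.20 (adjusted p = 2.88e-06) in plasma and -2.37 ± 0.22 (adjusted p = 2.26e-06) in germinal center cells by limma. It did not pass in memory cells at -0.62 ± 0.20 (adjusted p = 0.109), where the arrays did not overlap. Memory cells had more Irf1 than germinal center cells, by 1.75 ± 0.20 (adjusted p = 2.11e-05), and plasma cells less than memory cells, at -1.38 ± 0.19 (adjusted p = 4.21e-05).

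Irf9, the DNA-binding subunit of ISGF3, had intensities of 102, 90.4, 122 and 111 in plasma cells, 348, 309.6, 295 and 246 in memory cells, 161, 102 and 108 in germinal center cells and 463, 706 and 272 in naive cells. Plasma and germinal center arrays were low, and memory and naive arrays overlapped. It fell by limma in plasma cells, -2.08 ± 0.26 (adjusted p = 2.33e-05), and in germinal center cells, -1.88 ± 0.28 (adjusted p = 0.000215), against naive cells. Stat2, its partner in ISGF3, had 24.9, 24.2, 25.0 and 32.6 in plasma cells, 51.4, 27.7, 26.4 and 21.7 in memory cells, 12.8, 20.2 and 24 in germinal center cells and 49.9, 58.5 and 44.2 in naive cells. Naive arrays were highest, and memory replicate 1 alone among the others reached their range. Stat2 fell, at -1.46 ± 0.29 (adjusted p = 0.00209) in germinal center cells, where 2 of 3 arrays were above background, and at -0.93 ± 0.27 (adjusted p = 0.0158) in plasma cells. The plasma call did not pass without naive replicate 2 (-0.83, adjusted p = 0.0644). A second Stat2 probe set, above background on 1 array, gave 0.11 in germinal center and 0.40 in plasma cells, neither past the threshold.

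Irf7 drives production of type I interferons. Its intensities were 23.7, 25.5, 23 and 31.2 in plasma cells, 22.4, 23, 23.6 and 22.9 in memory cells, 22.4, 33.1 and 26.9 in germinal center cells and 33.6, 39.0 and 30.5 in naive cells. All memory arrays lay below all naive arrays, while plasma and germinal center arrays overlapped naive ones. It fell by limma only in memory cells, -0.57 ± 0.15 (adjusted p = 0.0395), with -0.41 ± 0.15 (adjusted p = 0.0524) in plasma and -0.33 ± 0.16 (adjusted p = 0.175) in germinal center cells. Those 3 differences were not tested against each other. The memory call did not pass without any one of plasma replicates 1 and 2, memory replicates 1, 2, 3 and 4 and naive replicates 1, 2 and 3 (-0.66 to -0.48, adjusted p = 0.0512 to 0.169).

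Among the 4 sensors of foreign or misplaced nucleic acids, 2 rose and 2 fell in plasma cells. Ddx58, which encodes the sensor RIG-I, had intensities of 589, 611, 619 and 580.2 in plasma cells, 311, 345, 426 and 326 in memory cells, 38.0, 26.9 and 32.0 in germinal center cells and 352, 314 and 294 in naive cells. Plasma arrays were above all others, germinal center arrays were far below them, and memory overlapped naive arrays. The fold change was -3.32 ± 0.15 (adjusted p = 2.13e-09) in germinal center and 0.91 ± 0.14 (adjusted p = 0.000176) in plasma against naive cells, and 4.23 ± 0.14 (adjusted p = 7.86e-11) in plasma against germinal center cells. A second, dimmer Ddx58 probe set, above background on 9 arrays, gave -1.26 in plasma and -2.08 in germinal center against naive cells, so the direction in plasma cells depends on the probe set.

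Zbp1, a sensor of left-handed nucleic acids that can start cell death, had intensities of 178, 77.5, 60.4 and 175 in plasma cells, 17.8, 19.3, 15.8 and 24.1 in memory cells, 18.2, 20.9 and 22.5 in germinal center cells and 29.9, 31.5 and 24.7 in naive cells. Each plasma array was above every other array, although plasma replicates 1 and 4 were well above replicates 2 and 3. It rose by 1.94 ± 0.32 (adjusted p = 0.000291) in plasma against naive cells. Ifih1, which encodes the RNA sensor MDA5, fell in plasma cells against naive cells at -0.87 ± 0.31 (adjusted p = 0.0476), but not without any one of plasma replicates 1, 2 and 4, memory replicates 2 and 3 and naive replicates 1, 2 and 3 (-1.01 to -0.71, adjusted p = 0.0576 to 0.131). It was higher in memory than in germinal center cells, 1.01 ± 0.31 (adjusted p = 0.0308), but not without any one of memory replicates 2, 3 and 4 and germinal center replicate 1 (0.61 to 1.02, adjusted p = 0.0559 to 0.162). Dhx58, which encodes the regulator LGP2 of both RNA sensors, fell in plasma cells against naive cells at -1.48 ± 0.33 (adjusted p = 0.00281), with 3 of 4 plasma arrays above background. A dimmer Dhx58 probe set, above background on 1 array, gave 0.40 there.

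All 3 IFIT genes, whose proteins bind viral RNA and hinder its translation, fell in both plasma and germinal center cells. Ifit2 had intensities of 11.4, 8.97, 10.2 and 13.3 in plasma cells, 28.8, 72.8, 60.2 and 107 in memory cells, 27, 20.6 and 26.8 in germinal center cells and 258, 132 and 376 in naive cells. No plasma array was above background, naive arrays were highest, and memory and germinal center arrays did not overlap. Plasma cells were at least 17.1-fold lower than naive cells (adjusted p = 5.79e-07), at least 4.41-fold lower than memory cells (adjusted p = 6.99e-05) and at least 1.79-fold lower than germinal center cells (adjusted p = 0.0392), by limma. Against naive cells it fell, at -3.25 ± 0.41 (adjusted p = 4.93e-05) in germinal center and -1.95 ± 0.39 (adjusted p = 0.00824) in memory cells. The memory call did not pass without naive replicate 3 (-1.61, adjusted p = 0.0503). The call between plasma and germinal center cells did not pass without any one of plasma replicates 1, 2 and 3, memory replicate 3, germinal center replicates 1, 2 and 3 and naive replicate 1 (adjusted p = 0.0502 to 0.104), and that of memory over germinal center cells (1.30 ± 0.39) did not pass without any one of memory replicates 2 and 4 and germinal center replicate 2 (1.03 to 1.21, adjusted p = 0.0637 to 0.0868).

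Ifit3 fell, at -1.04 ± 0.26 (adjusted p = 0.00718) in plasma and -1.10 ± 0.28 (adjusted p = 0.0118) in germinal center cells against naive cells. It rose in memory over germinal center cells (0.82 ± 0.26), a call that did not pass without any one of memory replicates 2 and 4 and germinal center replicates 1 and 3 (0.55 to 0.90, adjusted p = 0.0541 to 0.14). Ifit1 was above background on no plasma or germinal center array, and was at least 1.3-fold lower in plasma (adjusted p = 0.00497) and at least 1.26-fold lower in germinal center than in naive cells (adjusted p = 0.0205). The germinal center call did not pass without any one of germinal center replicate 1 and naive replicate 1 (adjusted p = 0.0839 to 0.0986). Ifit2 and Ifit3 are direct neighbours among coding genes on chromosome 19, and Ifit1 lies 3 coding genes from Ifit3.

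The measured genes of the ISG15 system, which couples a ubiquitin-like protein to other proteins, fell in different subsets. Usp18 encodes the protease that removes ISG15 and also restrains the type I receptor, and it had intensities of 11.0, 13.6, 17.1 and 15.7 in plasma cells, 9.77, 10.6, 11.2 and 19.4 in memory cells, 12.9, 10.3 and 9.90 in germinal center cells and 44.6, 28.3 and 37.9 in naive cells. Naive arrays were above all others. It fell, at -1.36 ± 0.24 (adjusted p = 0.000453) in plasma cells, with 2 of 4 arrays above background, and at -1.57 ± 0.24 (adjusted p = 0.00124) in memory cells, with 1 of 4. In germinal center cells, where no array was above background, it was at least 2.57-fold lower (adjusted p = 0.000189).

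Herc6, the ISG15 ligase of mice, had intensities of 59.1, 58.4, 98.7 and 56.5 in plasma cells, 135, 183, 148 and 134 in memory cells, 448, 204 and 467 in germinal center cells and 204, 95.4 and 481 in naive cells. Plasma arrays were lowest, though plasma replicate 3 lay above naive replicate 2, and germinal center arrays overlapped naive ones. It fell, at -2.40 ± 0.43 (adjusted p = 0.000721) in plasma against germinal center cells, and at -1.67 ± 0.43 (adjusted p = 0.00829) against naive cells. The call between plasma and memory cells (-1.17 ± 0.40) did not pass without any one of plasma replicates 1, 2 and 4 and memory replicates 1, 2, 3 and 4 (-1.22 to -1.07, adjusted p = 0.0546 to 0.0918). A second Herc6 probe set, above background on all 14 arrays, gave 1.09 in plasma against naive cells and 1.22 in plasma against germinal center cells, so the direction for this gene depends on the probe set. Against naive cells Trim25, a ligase for ISG15 and ubiquitin that acts on RIG-I, passed only in germinal center cells. It fell there, at -1.15 ± 0.19 (adjusted p = 0.000422), with -0.03 ± 0.17 in plasma and 0.05 ± 0.17 in memory cells. Over germinal center cells it rose by 1.20 in memory and 1.12 in plasma cells. Both other Trim25 probe sets that were above background on all arrays gave -1.26 and -1.29 in germinal center cells, and 0.42 and 1.56 in plasma cells, against naive cells.

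The OAS family makes a short oligoadenylate that activates RNase L, and 3 of its 5 genes fell in plasma and in germinal center cells. Oas1a had intensities of 63.8, 63.2, 67.1 and 71.4 in plasma cells, 156, 164, 116 and 166 in memory cells, 115, 119 and 80.9 in germinal center cells and 454, 351 and 177 in naive cells. Plasma arrays were below all others and naive arrays above all others. It fell, at -2.20 ± 0.26 (adjusted p = 1.13e-05) in plasma, -1.03 ± 0.26 (adjusted p = 0.0307) in memory and -1.56 ± 0.27 (adjusted p = 0.000907) in germinal center cells against naive cells. The memory call did not pass without any one of memory replicates 1, 2 and 3 and naive replicates 1 and 2 (-1.08 to -0.74, adjusted p = 0.0573 to 0.131).

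Oasl1, known in mice to repress translation of Irf7, had intensities of 33.2 to 47.0 in plasma cells, 41.1 to 54.8 in memory cells, 35.6 to 53.0 in germinal center cells and 87.0 to 129 in naive cells. Naive arrays did not overlap any other. It fell, at -1.51 ± 0.19 (adjusted p = 1.77e-05) in plasma, -1.14 ± 0.19 (adjusted p = 0.00206) in memory and -1.33 ± 0.20 (adjusted p = 0.000216) in germinal center cells. Its direct neighbour Oasl2 was above background on no plasma, memory or germinal center array, and was at least 1.03-fold lower in plasma than in naive cells (adjusted p = 0.0108), a call that did not pass without naive replicate 1 (adjusted p = 0.0709). It also passed in germinal center cells (adjusted p = 0.00194), where the bound leaves no fold to give. Oas2 and Oas3, also direct neighbours on chromosome 5, passed in no contrast, with intensities of 25.6 to 38.0 in plasma cells, 23.1 to 35.2 in memory cells, 34.0 to 37.5 in germinal center cells and 32.8 to 45.9 in naive cells for Oas2 and 13.6 to 16.9 in plasma cells, 10.5 to 14.6 in memory cells, 12.1 to 18.4 in germinal center cells and 9.75 to 12.9 in naive cells for Oas3.

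The dynamin-like GTPases Mx1 and Mx2, which block virus replication, fell in germinal center cells, and did not pass in plasma or memory cells. Mx1 had intensities of 24.3, 29.2, 51.2 and 34.9 in plasma cells, 37.5, 41.5, 28.5 and 83.5 in memory cells, 21.4, 12.9 and 18.9 in germinal center cells and 115, 47.4 and 35.6 in naive cells. Germinal center arrays were below all others, with 2 of 3 above background, and naive replicate 1 stood above the other naive arrays. It fell, at -1.74 ± 0.44 (adjusted p = 0.0113) in germinal center against naive cells, and not without naive replicate 1 (-1.24, adjusted p = 0.058). The call for memory over germinal center cells (1.34 ± 0.41) did not pass without any one of memory replicates 2 and 4 and germinal center replicates 2 and 3 (1.03 to 1.40, adjusted p = 0.051 to 0.115). Mx2 fell, at -0.72 ± 0.19 (adjusted p = 0.0137) in germinal center cells, and not without naive replicate 2 (-0.55, adjusted p = 0.0633).

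Interferon-inducible GTPases gather on vacuoles that hold parasites or bacteria, and Irgm1 and Igtp changed most in germinal center cells. Irgm1, a regulator of the other GTPases of its family, had intensities of 173, 206, 207 and 133 in plasma cells, 341, 218, 213 and 258 in memory cells, 10.7, 15.6 and 14.2 in germinal center cells and 216, 248 and 206 in naive cells. Germinal center arrays were near background, which 2 of 3 exceeded, and the arrays of the other 3 subsets were far above them. It fell, at -4.06 ± 0.22 (adjusted p = 1.05e-08) in germinal center against naive cells, and was higher by 3.73 ± 0.20 (adjusted p = 5.96e-09) in plasma and by 4.25 ± 0.20 (adjusted p = 2.69e-09) in memory than in germinal center cells. Plasma and naive arrays overlapped, with -0.33 ± 0.20 (adjusted p = 0.255). The smaller difference between plasma and memory cells (-0.51 ± 0.19) did not pass without any one of plasma replicates 1 and 4, memory replicates 1 and 4, germinal center replicate 3 and naive replicates 1, 2 and 3 (-0.51 to -0.37, adjusted p = 0.0541 to 0.155).

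Igtp, a relative of Irgm1, had intensities of 882, 669, 805 and 816 in plasma cells, 433, 483, 454 and 296 in memory cells, 69.5, 124 and 109 in germinal center cells and 531, 542 and 479 in naive cells. Plasma arrays were above all others and germinal center arrays below all others. It fell, at -2.40 ± 0.22 (adjusted p = 2.04e-06) in germinal center cells against naive cells. It rose by 0.61 ± 0.20 (adjusted p = 0.0349) in plasma against naive cells, a call that did not pass without any one of plasma replicates 1, 3 and 4 and naive replicates 1, 2 and 3 (0.56 to 0.65, adjusted p = 0.0615 to 0.112). Iigp1, of the same family, had 10.9, 10.6, 10.1 and 9.73 in plasma cells, 9.64, 10.0, 6.95 and 8.44 in memory cells, 7.16, 9.80 and 8.28 in germinal center cells and 7.66, 7.67 and 6.64 in naive cells. All 14 values lay below the background of their arrays, and the plasma call (adjusted p = 0.0181) did not pass without naive replicate 3 (adjusted p = 0.081).

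Gbp2 and Gbp3 are guanylate-binding proteins, and 1 coding gene lies between them on chromosome 3. Gbp2 fell, at -1.35 ± 0.22 (adjusted p = 0.000251) in plasma and -0.80 ± 0.24 (adjusted p = 0.0272) in germinal center against naive cells, the second not without any one of germinal center replicates 1 and 2 and naive replicates 2 and 3 (-0.82 to -0.73, adjusted p = 0.0542 to 0.0846). Gbp3 fell, at -0.95 ± 0.21 (adjusted p = 0.0049) in germinal center cells, and its value in plasma cells was -0.31 ± 0.20. Gbp3 rose in plasma over germinal center cells (0.64 ± 0.20), though not without any one of plasma replicates 1 and 3 and germinal center replicate 2 (0.39 to 0.57, adjusted p = 0.0777 to 0.144), and in memory over germinal center cells (0.63 ± 0.20), though not without any one of memory replicates 3 and 4 and germinal center replicate 2 (0.38 to 0.60, adjusted p = 0.0743 to 0.165). Guanylate-binding genes resemble each other, so a probe set may also detect a relative.

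**Figure D3:**
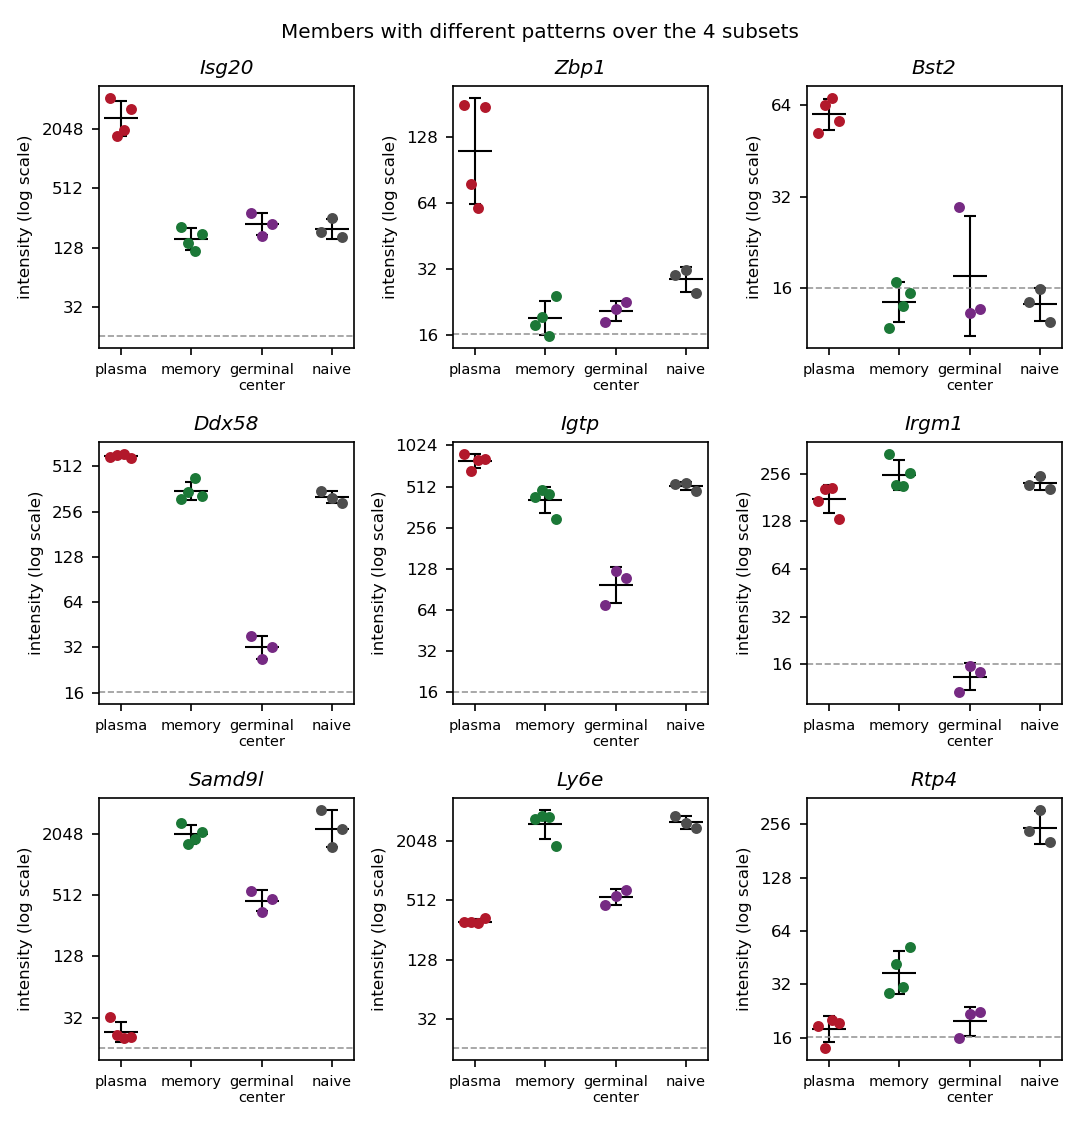
Each panel is 1 gene, each point 1 array, on a log axis of intensity. The black bar is the geometric mean ± 1 SD on the log2 scale and the dashed line the highest background of any array, 16.1. Isg20, Zbp1 and Bst2 are high in plasma cells alone, Ddx58, Igtp and Irgm1 are low in germinal center cells, Samd9l and Ly6e are low in plasma and germinal center cells, and Rtp4 is high in naive cells alone.

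The remaining antiviral effectors held both the widest rise and the widest fall in plasma against naive cells. Isg20, an exonuclease that degrades viral RNA, had intensities of 4265, 1752, 2014 and 3267 in plasma cells, 207, 141, 117 and 174 in memory cells, 288, 169 and 225 in germinal center cells and 184, 254 and 165 in naive cells. Plasma arrays were above all others, and the other 3 subsets overlapped each other. It rose by 3.74 ± 0.30 (adjusted p = 2.63e-07) in plasma against naive, by 3.58 ± 0.30 (adjusted p = 5.66e-07) against germinal center and by 4.08 ± 0.28 (adjusted p = 4.05e-08) against memory cells. Bst2, a membrane protein that tethers budding viruses, had 51.6, 63.7, 67.5 and 56.8 in plasma cells, 11.9, 16.8, 14.0 and 15.4 in memory cells, 29.5, 13.3 and 13.8 in germinal center cells and 14.5, 15.9 and 12.4 in naive cells. Plasma arrays were above all others, germinal center replicate 1 came next, and the other arrays lay around background, which 2 of 3 naive and 2 of 3 germinal center arrays exceeded. It rose by 2.07 ± 0.24 (adjusted p = 9.45e-06) in plasma against naive cells.

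Samd9l, whose product restrains cell growth, had intensities of 32.2, 21.6, 20.2 and 20.8 in plasma cells, 2626, 1623, 1805 and 2121 in memory cells, 559.9, 349 and 467 in germinal center cells and 3495, 1513 and 2256 in naive cells. All plasma arrays were below all others, germinal center arrays lay between, and memory overlapped naive arrays. It fell, at -6.62 ± 0.27 (adjusted p = 2.74e-10) in plasma against naive, at -6.43 ± 0.25 (adjusted p = 1.51e-10) against memory and at -4.28 ± 0.27 (adjusted p = 3.21e-08) against germinal center cells. In germinal center against naive cells it fell, at -2.34 ± 0.29 (adjusted p = 3.86e-05).

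Ly6e, a lipid-anchored surface protein, had intensities of 306, 307, 299 and 336 in plasma cells, 3455, 3735, 3633 and 1844 in memory cells, 457, 569 and 653 in germinal center cells and 3722, 3161 and 2765 in naive cells. Plasma arrays were lowest, germinal center arrays next, and memory overlapped naive arrays. It fell, at -3.36 ± 0.22 (adjusted p = 3.14e-08) in plasma and -2.53 ± 0.24 (adjusted p = 2.51e-06) in germinal center against naive cells, and at -3.29 ± 0.20 (adjusted p = 1.49e-08) in plasma against memory cells. The smaller fall in plasma against germinal center cells (-0.83 ± 0.22) did not pass without germinal center replicate 3 (-0.71, adjusted p = 0.0572). A second Ly6e probe set, above background on all 14 arrays, gave -1.74 in germinal center and -0.35 in plasma against naive cells, and 1.39 in plasma against germinal center cells. The falls in plasma against naive and memory cells did not pass with the second brightest probe set.

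Rtp4, a receptor chaperone with antiviral activity, had intensities of 18.6, 13.9, 20.2 and 19.3 in plasma cells, 28.4, 41.8, 30.9 and 51.8 in memory cells, 15.9, 21.8 and 22.4 in germinal center cells and 235, 309 and 203 in naive cells. Naive arrays were above all others, and a second probe set of Rtp4 was above background on 0 arrays. It fell, at -3.78 ± 0.22 (adjusted p = 1.11e-08) in plasma, where 3 of 4 arrays were above background, at -2.72 ± 0.22 (adjusted p = 6.16e-06) in memory and at -3.63 ± 0.24 (adjusted p = 8.45e-08) in germinal center cells.

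Cmpk2, a mitochondrial nucleotide kinase, whose other probe set was above background on 2 arrays, had intensities of 88.4, 66.0, 99.0 and 45.3 in plasma cells, 157, 58.6, 87.9 and 170.5 in memory cells, 28.0, 35.1 and 31.2 in germinal center cells and 222, 463 and 566 in naive cells. Naive arrays were highest, germinal center arrays lowest, and plasma overlapped memory arrays. It fell, at -2.44 ± 0.39 (adjusted p = 0.00022) in plasma, -1.84 ± 0.39 (adjusted p = 0.0128) in memory and -3.63 ± 0.42 (adjusted p = 2.01e-05) in germinal center cells. The memory call did not pass without any one of naive replicates 2 and 3 (-1.71 to -1.56, adjusted p = 0.0639 to 0.0729), and the rise in plasma over germinal center cells (1.19 ± 0.39) did not pass without any one of plasma replicates 1, 2 and 3 and germinal center replicates 1, 2 and 3 (1.04 to 1.28, adjusted p = 0.0626 to 0.107). Its direct neighbour Rsad2, which encodes the antiviral enzyme viperin, fell, at -2.06 ± 0.42 (adjusted p = 0.00163) in plasma and -1.94 ± 0.45 (adjusted p = 0.00654) in germinal center cells, with -1.35 ± 0.42 (adjusted p = 0.0876) in memory cells, where memory replicate 4 and naive replicate 3 overlapped.

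Eif2ak2, which encodes the RNA-dependent kinase PKR, and the RNA-editing gene Adar passed in no contrast. Eif2ak2 had intensities of 12.7 to 19.5 in plasma cells, 11.0 to 13.7 in memory cells, 11.9 to 16.5 in germinal center cells and 10.2 to 17.1 in naive cells, close to background. Adar was well above it, with 260.4 to 377 in plasma cells, 274 to 365 in memory cells, 147 to 308 in germinal center cells and 185 to 229 in naive cells, and its largest fold change was 0.61 ± 0.22 (adjusted p = 0.0545) in plasma against naive cells. A second Adar probe set, above background on all 14 arrays, gave -1.21 there.

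Among TRIM and nuclear body genes, Pml showed the widest fall in germinal center cells of all 43 genes. Pml organises nuclear bodies, and its intensities were 268, 385, 444 and 297 in plasma cells, 1506, 1584, 2048 and 1916 in memory cells, 31.2, 21.3 and 21.8 in germinal center cells and 1361, 1196 and 1031 in naive cells. Germinal center arrays were far below all others, plasma arrays lay between, and memory arrays were above all naive arrays. It fell, at -5.61 ± 0.21 (adjusted p = 4.3e-10) in germinal center and -1.80 ± 0.20 (adjusted p = 6.36e-06) in plasma against naive cells, and memory exceeded germinal center cells by 6.16 ± 0.20 (adjusted p = 8.39e-11). The difference between memory and naive cells was 0.56 ± 0.20 (adjusted p = 0.14) and did not pass. Another Pml probe set, above background on all 14 arrays, gave -1.12 in germinal center and -0.17 in plasma against naive cells, the same direction at a smaller size. With the second brightest Pml probe set the falls in plasma against naive and memory cells did not pass.

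Trim21, an antibody receptor of the cytosol, had intensities of 157, 125, 212 and 156 in plasma cells, 566, 748, 830.0 and 571 in memory cells, 412, 325 and 399 in germinal center cells and 989, 745 and 956 in naive cells. Plasma arrays were lowest, germinal center arrays next, and memory and naive arrays, which overlapped, highest. It fell, at -2.48 ± 0.19 (adjusted p = 1.87e-07) in plasma and -1.24 ± 0.21 (adjusted p = 0.000575) in germinal center against naive cells, and at -1.24 ± 0.19 (adjusted p = 0.000214) in plasma against germinal center cells. A second Trim21 probe set, above background on 10 arrays, gave 0.097 in germinal center against naive cells. With the second brightest probe set no fall of Trim21 in plasma cells passed, so those falls rest on the brightest one. Trim30a, known in mice to restrain signals of Toll-like receptors, fell, at -1.23 ± 0.24 (adjusted p = 0.00106) in plasma and -1.68 ± 0.25 (adjusted p = 0.000242) in germinal center cells. Sp100, a nuclear body protein, fell in plasma cells at -0.66 ± 0.22 (adjusted p = 0.0333), though not without any one of plasma replicates 2 and 3 and naive replicates 1 and 3 (-0.66 to -0.51, adjusted p = 0.0619 to 0.156).

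Of the PARP proteins, which attach ADP-ribose, Parp14 is also known as a coactivator of interleukin 4 responses in B cells. It fell, at -1.34 ± 0.23 (adjusted p = 0.000413) in plasma and -1.18 ± 0.25 (adjusted p = 0.00335) in germinal center cells, with intensities of 667 to 1380.4 in plasma cells, 2291 to 2938 in memory cells, 996 to 1368 in germinal center cells and 2155 to 3418 in naive cells. Plasma and germinal center arrays did not overlap memory or naive arrays. The fall of Parp14 in germinal center cells did not pass with the second brightest probe set. Parp9, 1 coding gene away on chromosome 16, fell in plasma cells at -0.53 ± 0.15 (adjusted p = 0.0147), though not without naive replicate 1 (-0.41, adjusted p = 0.0846). Xaf1, a promoter of cell death, fell, at -1.24 ± 0.20 (adjusted p = 0.00028) in plasma and -1.87 ± 0.22 (adjusted p = 2.43e-05) in germinal center cells, and its rise in plasma over germinal center cells (0.62 ± 0.20) did not pass without any one of plasma replicates 1, 2, 3 and 4, memory replicates 3 and 4 and germinal center replicates 2 and 3 (0.45 to 0.69, adjusted p = 0.0501 to 0.172). With the second brightest Xaf1 probe set neither the falls nor that rise passed. Ifi35 fell in plasma against naive cells at -0.67 ± 0.24 (adjusted p = 0.0495), though not without any one of plasma replicates 2 and 3, memory replicates 2, 3 and 4, germinal center replicate 3 and naive replicates 1 and 2 (-0.67 to -0.55, adjusted p = 0.0576 to 0.168), and in plasma against memory cells at -0.62 ± 0.22 (adjusted p = 0.047), though not without any one of plasma replicates 2 and 3, memory replicates 1, 2, 3 and 4, germinal center replicate 3 and naive replicate 1 (-0.69 to -0.48, adjusted p = 0.053 to 0.142).

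The genes that rose in plasma cells were set beside markers of other cells that a sort might hold. Of 9 macrophage and monocyte markers 6 were higher and 1, Adgre1, was lower in plasma than in naive cells. Among all genes 14.2% were higher and 16.1% lower there, and the marker counts here are to be read beside these shares. The summed intensity of the 9 markers was 136 to 313 on plasma, 119 to 135 on memory, 143 to 150.4 on germinal center and 137 to 175 on naive arrays. Of these 9 markers, 1 was above background on no plasma array, 5 on no memory array, 4 on no germinal center array and 4 on no naive array. Of 6 measured T cell markers 3 were higher and 0 lower in plasma cells, with sums of 114 to 139 on plasma, 77.0 to 89.6 on memory, 86.8 to 101 on germinal center and 78.3 to 86.5 on naive arrays. Plasmacytoid dendritic cells are known for high Bst2 and Irf7. Of their 7 measured markers 2 were higher and 1 was lower in plasma cells, and the sums were 1791 to 2420.4 on plasma, 2918 to 4123 on memory, 1029 to 1886 on germinal center and 1701 to 2394 on naive arrays. Most of each sum was Tcf4, which B cells are also known to express, so that the sums show little of the dimmer markers. The 2 that were higher in plasma than in naive cells were Ccr9, with 26.7, 13.2, 15.4 and 32.6 in plasma cells, 11.4, 9.70, 9.52 and 14.4 in memory cells, 11.2, 8.00 and 7.62 in germinal center cells and 9.21, 9.74 and 10.1 in naive cells, and Cox6a2, with 44.2, 35.1, 33.0 and 48.5 in plasma cells, 25.8, 22.0, 24.3 and 23.5 in memory cells, 48.9, 43.9 and 35.8 in germinal center cells and 21.5, 31.6 and 26.2 in naive cells. Ccr9 was highest on plasma replicates 1 and 4 and above background on no naive array, and plasma cells were at least 1.58-fold higher than naive cells. Pacsin1, the 1 that was lower, had 57.7, 33.9, 38.2 and 43.4 in plasma cells and 65.2, 72.4 and 72.0 in naive cells. Siglech was just above background, at 21.4 to 24.9 in plasma cells, 17.4 to 22.1 in memory cells, 19.9 to 28.5 in germinal center cells and 18.3 to 22.8 in naive cells, and passed in no contrast with naive cells.

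The macrophage receptor gene Csf1r had intensities of 145, 56.0, 30.8 and 107 in plasma cells, 32.1, 32.2, 25.6 and 23.1 in memory cells, 39.0, 47.3 and 41.8 in germinal center cells and 27.4, 33.6 and 27.4 in naive cells. The T cell gene Thy1 had 38.5, 24.9, 17.7 and 42.6 in plasma cells, 10.1, 9.06, 8.62 and 11.9 in memory cells, 10.7, 13.5 and 8.70 in germinal center cells and 8.70, 10.4 and 8.82 in naive cells. Plasma replicates 1 and 4 were the higher ones for both, as they were for Zbp1, Isg20 and Igtp, but not for Bst2 or Ddx58. The same replicates were higher for C1qa, C1qb, C1qc, Cd68, Adgre1, Cd14, Vcam1 and Cd3e, but not for Lyz2, Cd3d, Cd3g, Cd4 or Cd8a. Cd14 and Cd3g were above background on no plasma array. Lyz2 was 93.1 on plasma replicate 2, against 15.2 to 22.7 on the other plasma arrays. Plasma replicate 3 lay within the naive range for Csf1r, but above all naive arrays for Thy1, for the macrophage gene Cd68 and for the T cell gene Cd3e. The part of other cells in these rises was not tested.

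The receptor genes of the pathway also changed between subsets. Ifnar1 had intensities of 174, 114, 125 and 145 in plasma cells, 247, 149, 154 and 199 in memory cells, 32.5, 35.1 and 82.9 in germinal center cells and 416, 434 and 388 in naive cells. Naive arrays were above all others and germinal center arrays below all others. It fell, at -1.58 ± 0.28 (adjusted p = 0.000559) in plasma, -1.17 ± 0.28 (adjusted p = 0.0266) in memory and -3.18 ± 0.30 (adjusted p = 3.14e-06) in germinal center cells. Ifnar2 had 473, 322, 366 and 446 in plasma cells, 51.2, 58.3, 83.9 and 88.3 in memory cells, 33.7, 14.8 and 23.5 in germinal center cells and 149, 99.4 and 107 in naive cells. In contrast to its partner chain it was highest in plasma cells, 1.77 ± 0.27 (adjusted p = 0.000153) against naive cells, and fell, at -2.36 ± 0.29 (adjusted p = 3.71e-05) in germinal center cells. Only the brightest of 2 probe sets was read for Ifnar1, and of 3 for Ifnar2.

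The chains for interferon gamma were low in plasma cells. Ifngr1 had 59.4, 48.6, 55.6 and 70.7 in plasma cells, 308, 294, 332 and 326 in memory cells, 188, 155 and 244 in germinal center cells and 262, 283 and 281 in naive cells. Plasma arrays were below all others, and it fell there, at -2.24 ± 0.16 (adjusted p = 6.14e-08), and at -0.52 ± 0.17 (adjusted p = 0.0444) in germinal center cells. Ifngr2 had 61.6, 30.6, 22.9 and 32.2 in plasma cells, 741, 382, 385 and 459.8 in memory cells, 35.2, 60.2 and 62.2 in germinal center cells and 395, 290.1 and 293 in naive cells. Plasma and germinal center arrays overlapped below all memory and naive arrays, with -3.23 ± 0.32 (adjusted p = 2.18e-06) in plasma and -2.67 ± 0.34 (adjusted p = 5.58e-05) in germinal center against naive cells.

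Of 9 measured receptor and kinase genes 6 fell and 1 rose in plasma, 2 fell and 1 rose in memory, and 7 fell and 1 rose in germinal center against naive cells. Among all genes 16.1% fell and 14.2% rose in plasma, 3.26% fell and 2.31% rose in memory, and 11.1% fell and 8.37% rose in germinal center cells. The counts of pathway genes are to be read beside these shares, and a single rise among 9 genes in plasma or germinal center cells is close to them. Jak1 fell, at -3.55 ± 0.37 in plasma and -2.05 ± 0.40 in germinal center cells, and Jak2 at -1.98 ± 0.13 and -0.55 ± 0.14 in the same subsets. Tyk2 passed in none of the 3, with 0.11 ± 0.24 in plasma, 0.27 ± 0.24 in memory and -0.67 ± 0.26 in germinal center cells. Il10rb, a chain of the receptor for interferon lambda, fell in all 3, at -1.52 ± 0.21 in plasma, -0.86 ± 0.21 in memory and -3.28 ± 0.22 in germinal center cells, whereas its partner Ifnlr1 rose in memory (0.73 ± 0.19) and germinal center cells (0.87 ± 0.20). Ifnlr1 was near background in naive cells, where 2 of 3 arrays exceeded it.

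**Figure D4:**
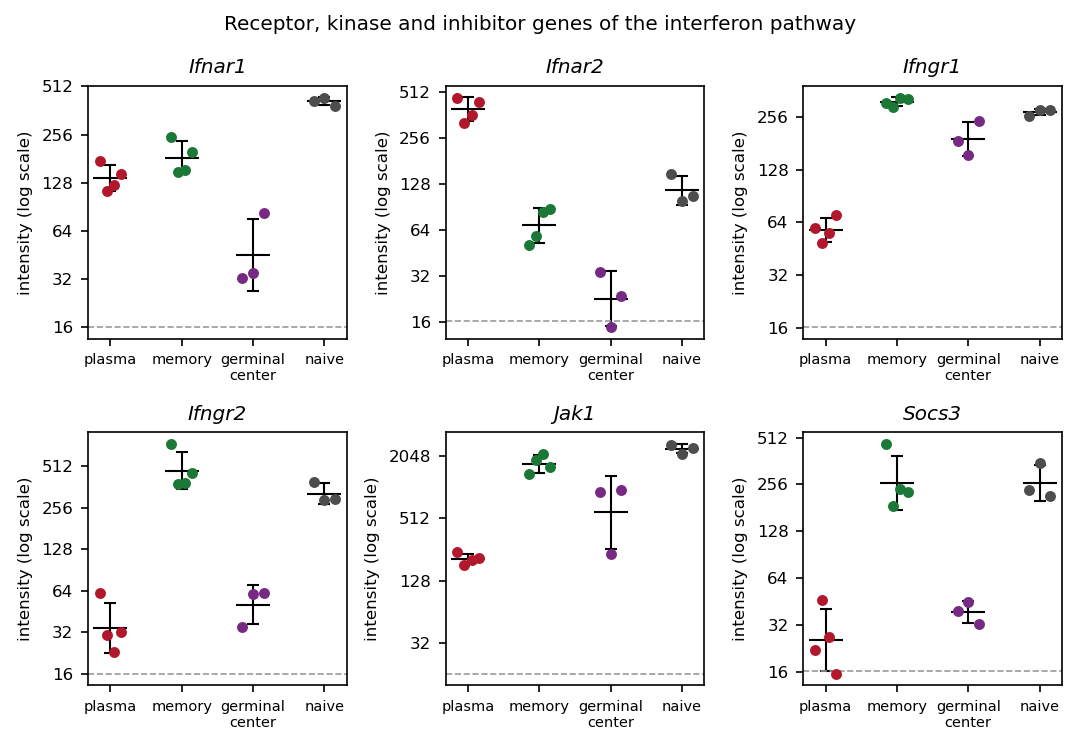
Panels show 4 receptor chains, the kinase Jak1 and the inhibitor Socs3, each point 1 array on a log axis of intensity, with the geometric mean ± 1 SD as a black bar and the highest array background, 16.1, as a dashed line. Ifnar2 is highest in plasma cells, and the other 5 genes are lower in plasma and germinal center cells than in naive cells.

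Interferon transcripts were mostly below background in these cells. Of 5 measured ligand genes 0 rose and 0 fell against naive cells by limma in any of the 3 subsets, and at an unadjusted p under 0.05 only Ifna2 was higher, in plasma cells, and Ifng lower, in memory cells. Ifnb1, Ifna1, Ifna4 and Ifng were above background on no array of any subset. Ifna2, the other one, had intensities of 12.8 to 23.2 in plasma cells, 11.1 to 13.1 in memory cells, 10.4 to 14.4 in germinal center cells and 11.2 to 13.8 in naive cells, and was higher in plasma than in memory cells by 0.50 ± 0.17 (adjusted p = 0.0328). Interferon protein was not measured.

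Of 10 measured genes that lead to interferon production 4 fell and 0 rose in plasma, 0 fell and 1 rose in memory, and 5 fell and 0 rose in germinal center against naive cells. The RNA receptor gene Tlr7 fell, at -1.83 ± 0.16 in plasma and -2.27 ± 0.17 in germinal center cells, and Irf5 at -1.69 ± 0.29 and -1.44 ± 0.31. Sting1, the adaptor of DNA sensing, fell, at -1.60 ± 0.20 in germinal center cells, and Ikbke, a kinase upstream of Irf3, rose by 1.55 ± 0.27 in memory cells. Only 1 of 3 naive arrays was above background for Ikbke.

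Of 7 inhibitors 5 fell and 0 rose in plasma, 1 fell and 0 rose in memory, and 4 fell and 1 rose in germinal center against naive cells. The phosphatase gene Ptpn6 fell, at -4.98 ± 0.35 in plasma and -1.34 ± 0.37 in germinal center cells. Socs3 fell, at -3.35 ± 0.35 in plasma and -2.76 ± 0.37 in germinal center cells, while Socs1, the inhibitor of the interferon receptors, was above background on no array. The B cell relatives of the IRF regulators went apart in plasma cells, where Irf4, a plasma cell factor, rose by 2.19 ± 0.31 and Irf8 fell, at -6.03 ± 0.24. In germinal center cells Irf4 fell, at -3.46 ± 0.33.

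A further 45 measured interferon-inducible genes outside the list, chosen with results of these data known, were counted beside it. Against naive cells 23 fell and 4 rose in plasma, 8 fell and 2 rose in memory, and 21 fell and 1 rose in germinal center cells. Among all genes 16.1% fell and 14.2% rose in plasma, 3.26% fell and 2.31% rose in memory, and 11.1% fell and 8.37% rose in germinal center cells, so that the rises in plasma and in germinal center cells are smaller shares than among all genes. Their median fold change was -0.56 in plasma, -0.08 in memory and -0.65 in germinal center cells. The Schlafen gene Slfn8 had 34.2, 39.9, 43.4 and 38.9 in plasma cells, 316, 309, 296 and 371 in memory cells, 93.0, 84.2 and 84.2 in germinal center cells and 1419, 1029 and 1369 in naive cells. The subsets did not overlap, and it fell, at -5.01 ± 0.14 in plasma, -1.97 ± 0.14 in memory and -3.86 ± 0.15 in germinal center cells. Ifitm3, which blocks virus entry, had 129.6, 70.2, 106 and 48.7 in plasma cells, 8.44, 10.1, 9.74 and 9.48 in memory cells, 8.28, 9.45 and 10.1 in germinal center cells and 8.75, 11.1 and 9.79 in naive cells. Only plasma arrays were above background, so that plasma cells were at least 6.38-fold higher than naive cells (adjusted p = 3.18e-07).

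Further widely changed genes of that set were these. Trim34a fell, at -4.87 ± 0.26 in plasma and -2.77 ± 0.28 in germinal center cells. Tdrd7, a protein of RNA granules, was at least 10.4-fold lower in plasma (adjusted p = 5.44e-07) and at least 10.1-fold lower in germinal center than in naive cells (adjusted p = 2.64e-06) by limma, with no array of either subset above background. Slfn2 fell, at -2.62 ± 0.27 in plasma, -1.97 ± 0.27 in memory and -3.21 ± 0.29 in germinal center cells, and Ifi27l2a fell, at -2.03 ± 0.36 in memory cells. Gbp7, which no germinal center array measured above background, was at least 8.2-fold lower there than in naive cells (adjusted p = 6.09e-07). In memory over germinal center cells 24 of the 45 rose and 1 fell, against 20 and 0 of the 43 listed genes.

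Genes with and without the ISRE core in their promoter are set side by side. In germinal center against naive cells 12 of the 16 genes with the core fell (median -1.17), against 10 of the 16 without it (median -1.24). In plasma cells 9 fell and 3 rose with the core (median -0.88), against 12 and 1 without it (median -1.38). In memory cells 1 fell with the core (median -0.27), against 4 without it (median -0.52). Among all genes 11.1% fell in germinal center, 16.1% fell and 14.2% rose in plasma, and 3.26% fell in memory cells. A count of 3 rises among 16 genes is close to that share of all genes. Genes with and without the core were not tested against each other. The 3 that rose in plasma cells with the core were Bst2, Ddx58 and Igtp, and Isg20, the widest rise, had no core in its window. The shares are a description of these windows, and elements outside them were not searched.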

How the data were processed

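The deposited table holds 1 intensity on a linear scale for each of 45101 probe sets on each array. The authors made it with RMA, per the submitters' processing notes, with no version or settings given in the sources used here. RMA had corrected background and normalized the arrays, so log2 was taken with no further correction. Of 45037 probe sets that are not controls, 34945 carry 1 gene symbol, 932 several and 9160 none. The brightest single-symbol probe set by mean log2 over 14 arrays stood for each of 18193 genes. For 9010 genes it was chosen among more than 1.

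A single fit in limma 3.58.1 (R 4.3.3) gave all 6 contrasts between subsets, with 10 residual degrees of freedom and Benjamini-Hochberg adjustment over all genes. The fit was also run on simulated independent normal values with known changes. These hold no shift in RNA quality and no disagreement between probe sets, so that run checks the code and not the contrasts. A gene is above background where it exceeds the brightest unspiked bacterial control of its array. A group above background on no array has only a bound, brighter over dimmer, stated as at least a given fold. The bound sets the mean of the brighter group against, on each array, the higher of the background and the dim value. Groups and replicate numbers came from the sample titles. Arrays were shown in full for the 3 widest falls and the 3 widest rises of each contrast, for members that went against most others in a contrast with naive cells, for the regulators and for the receptors. Usp18, Oas1a, Mx1, Csf1r, Thy1, Ccr9, Cox6a2, Slfn8 and Ifitm3 were shown in full after their values were seen. Other genes given with values outside these rules were also chosen after their values were seen. The members and lists were chosen with earlier results of these data known. Alternatives changed the probe set, normalization, filter, floor, threshold, model, actin ratio, replicate block and the arrays included. Isg15, whose probe set carries 2 symbols, and Ifi44 are not analysed here.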

Additional observations from a re-analysis of the deposited data

Results flagged for a closer look

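In groups of 4 arrays, the highest or lowest array of a gene was compared with the rest by Dixon's test at 95%, which sets its gap to the nearest array against the range of the group. Chance gives such a gap in about 1 of 20 groups, and it was found in 7 of 86. Stat2 was 32.6 on plasma replicate 4, above 24.2 to 25.0 on the other plasma arrays. Herc6 was 98.7 on plasma replicate 3, above 56.5 to 59.1 on the others. Samd9l was 32.2 on plasma replicate 1, above 20.2 to 21.6, and Xaf1 was 81.7 there, above 63.1 to 64.3. Trim30a was 523 on plasma replicate 2, below 906 to 985. Oas2 was 23.1 on memory replicate 3, below 33.0 to 35.2, and Ly6e was 1844 on memory replicate 4, below 3455 to 3735.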

How the results depend on the processing

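Among the 43 genes, 126 of 258 results passed, and 109 of these kept their direction under every alternative run, while 17 turned under another choice of probe set, as did 5 that had not passed. Genes with a single probe set kept it under these choices, so that no other probe set could turn them. Nothing was rerun for genes outside the list. With the actin ratio as a covariate 17 genes fell in germinal center against naive cells and 10 rose in memory over germinal center cells. In plasma cells 4 rose and 25 fell against naive, 8 and 4 against germinal center and 5 and 16 against memory cells in that fit. With the second brightest probe set the median was -0.72 in germinal center and -0.41 in plasma against naive cells and -0.16 in plasma against memory cells, and 1 gene fell in plasma against germinal center cells, with 10 that rose (90.9% of calls, against 68.8%). With the mean of all probe sets the medians against naive cells were -0.91 in germinal center and -0.67 in plasma cells, and 3 genes fell in plasma against germinal center cells. With arrays centred on bright genes the plasma median was -0.65, and 1 gene rose and 5 fell in memory against naive cells (16.7% of calls, against 0%). At an adjusted p under 0.01, 4 genes fell in memory against naive cells and 3 in plasma against germinal center cells, and 4 fell in memory cells with a floor of 16. In memory against germinal center cells 1 gene, Herc6, fell with quantile normalization, bright centring, the filter on background, a variance trend, the arrays of these subsets alone or the replicate block. When each array was left out in turn, counts of genes that rose and that fell were 0 to 1 and 26 to 29 in germinal center, 4 to 7 and 22 to 28 in plasma and 0 to 1 and 4 to 9 in memory against naive cells. They were 16 to 21 and 0 to 1 in memory and 8 to 11 and 3 to 7 in plasma against germinal center cells, and 5 to 5 and 13 to 17 in plasma against memory cells. Causes were not tested. Samples share only a replicate number: over 19 same-numbered pairs the correlation of deviations was -0.32 to 0.25, and 3 of 14 arrays correlated best with their own number. With the replicate block 0 rose and 28 fell in germinal center, 7 and 27 in plasma and 0 and 8 in memory against naive cells, 17 and 1 in memory and 10 and 6 in plasma against germinal center cells, and 5 and 16 in plasma against memory cells.

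The second brightest probe set, often near background, gave the opposite sign for these results. Cmpk2 gave 0.038 in germinal center and 0.12 in plasma against naive cells and -0.15 in memory against germinal center cells. Rtp4 gave 0.031 and -0.18, and Trim21 0.097 and -0.065, in germinal center against naive and in memory against germinal center cells. Stat2 gave 0.40 in plasma and 0.11 in germinal center cells, and Rsad2 0.27 and Dhx58 0.40 in plasma cells, against naive cells. In plasma against memory cells Dhx58 gave 0.43, Herc6 1.27, Ddx58 -0.98 and Adar -1.92. In plasma against naive cells Herc6 gave 1.09, Ddx58 -1.26 and Adar -1.21, and in plasma against germinal center cells Herc6 gave 1.22 and Ly6e 1.39. The mean of all probe sets gave -0.22 for Ddx58 and 0.65 for Trim25 in plasma against naive cells, -0.15 for Ddx58 and 0.67 for Trim25 in plasma against memory cells, and 0.28 for Ly6e in plasma against germinal center cells.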
